A study of Mus musculus with 30 samples.

Results

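Cytosolic ribosomal proteins are the protein part of the ribosomes that translate nuclear messages. The genes described here were all rows of the count table annotated as protein coding whose name begins with Rpl or Rps, without the S6 kinases (Rps6k) and Rps19bp1, which carry the prefix but are not ribosomal proteins. The rule returned 94 genes of 51752 rows. Of these, 43 encode proteins of the large subunit, 31 encode proteins of the small subunit, 3 encode the P stalk, and 17 are paralogs or retro-copies of another member.

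Each ribosome holds 1 copy of nearly every ribosomal protein, so the genes are made in step and their messages are among the most abundant in a cell. Most of these messages begin at a cytosine followed by a run of pyrimidines, the terminal oligopyrimidine (TOP) tract, through which mTORC1 and the RNA-binding protein Larp1 control their translation together. The genes are also known for many processed pseudogenes and retro-copies across the genome, whose sequences differ little from the parent message.

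The study asked how mouse forebrain and microglia differ when interleukin-34 (IL-34), a ligand of the Csf1 receptor that is made by neurons and sustains microglia, is lost. In the genotype experiment 4 IL34 Het animals (2 male, 2 female), which keep an intact copy of the gene, were compared with 3 IL34 KO animals (1 male, 2 female), and in the antibody experiment 4 wild-type animals given a control antibody against gp120 (2 male, 2 female) were compared with 4 given an antibody against IL-34 (3 male, 1 female). From each of the 15 animals there was 1 library of whole forebrain and 1 of cells taken from the other hemisphere with CD11b magnetic beads, called microglia isolates here. Age, the design of the deleted allele, and the antibody dose and schedule are not given in the sources used here, and the bead procedure also takes other CD11b-positive cells.

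The 30 libraries held 15.1 to 75.2 M counts each, where M is the usual mega prefix. Il34 stood at 18.6 to 23.2 CPM (counts scaled to a common library size) in Het and 6.55 to 8.31 CPM in KO forebrain, with no overlap, while in isolates it stood at 5.06 to 10.3 CPM in Het and 5.17 to 7.05 CPM in KO, which overlap. Levels below are CPM scaled over all libraries by the trimmed mean of M values (TMM). The 7 microglia markers in the table (Csf1r and Tmem119 among them) summed to 91.9 to 416 CPM in forebrain and to 3860 to 17200 CPM in isolates, so the isolates carry the labelled cell type, while 7 neuron markers still summed to 611 to 4810 CPM there. These are bulk samples: fewer cells of a type and less RNA per cell cannot be told apart.

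The start of the message is shown for 8 members, 6 with a TOP tract at the annotated start and 2 without, since the tract is what the family is known for and most members lack it at the start RefSeq gives. A pair of them, Rps27 and its retro-copy Rps27rt, shows how a copy can carry the same message. RefSeq gave a start on GRCm38.p6 for 66 of the 94 members. Each line runs from 40 bases before the annotated start to 20 bases from it, 5′ to 3′ on the gene's strand, and capitals mark a cytosine at the start with the unbroken pyrimidines after it, where these number at least 5.
Rps6 (chr4:86857348-86857407, minus strand): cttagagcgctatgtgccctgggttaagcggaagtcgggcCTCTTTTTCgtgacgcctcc
Rpl38 (chr11:114668540-114668599, plus strand): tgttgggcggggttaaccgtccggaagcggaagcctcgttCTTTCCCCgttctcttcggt
Rplp2 (chr7:141447611-141447670, plus strand): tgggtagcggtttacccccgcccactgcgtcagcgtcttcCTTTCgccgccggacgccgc
Rpl15 (chr14:18270967-18271026, minus strand): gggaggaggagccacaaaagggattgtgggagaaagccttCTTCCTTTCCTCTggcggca
Rps27 (chr3:90213629-90213688, minus strand): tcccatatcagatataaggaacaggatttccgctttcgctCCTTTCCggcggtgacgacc
Rps27rt (chr9:114982720-114982779, minus strand): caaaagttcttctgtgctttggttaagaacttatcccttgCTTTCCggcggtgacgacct
Rps9 (chr7:3704001-3704060, plus strand): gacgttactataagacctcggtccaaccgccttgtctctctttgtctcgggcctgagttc
Rpl5 (chr5:107900488-107900547, plus strand): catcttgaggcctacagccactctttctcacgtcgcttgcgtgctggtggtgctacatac

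Such a tract stood at the annotated start of 14 of the 66 members (21.2%), against 3.01% of 27025 genes with a RefSeq start. The 14 were Rpl14, Rpl15, Rpl28, Rpl35, Rpl35a, Rpl38, Rplp2, Rps6, Rps10, Rps15a, Rps18, Rps21, Rps27 and Rps27rt. The letters CTTTCC, searched on both strands within 25 bases of the start and overlapping the tract where both are present, were found on the gene's strand in 18.2% of members and 2.92% of all genes. On the other strand they were found in 3.03% of members and 2.59% of all genes. Rps9 and Rpl5 hold pyrimidine runs in the bases before their annotated start and none of the required kind at it. Rps27 and Rps27rt share the bases that follow the tract, although the bases before it differ.

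The members together took 0.178% to 0.222% of all counts in the 15 forebrain libraries, with a median of 0.191%, and 0.431% to 0.546% in the 15 isolates, with a median of 0.477%. Every animal had the larger share in its isolate, by 2.34-fold to 2.86-fold with a median of 2.44-fold (exact sign permutation test over 15 pairs, two-sided p = 6.1e-05, the smallest it can give). Adding the named pseudogene rows to their parents raised the medians to 0.273% and 0.696%. The ratio of counts between the subunits also differed: the counts of small-subunit genes were 0.765 to 0.834 of those of large-subunit genes in forebrain and 0.949 to 1.00 in isolates, ranges that do not overlap. This ratio sums the reads assigned to member rows, without copies, pseudogene rows or a correction for length. It was not recomputed with pseudogene rows added.

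**Figure D1:**
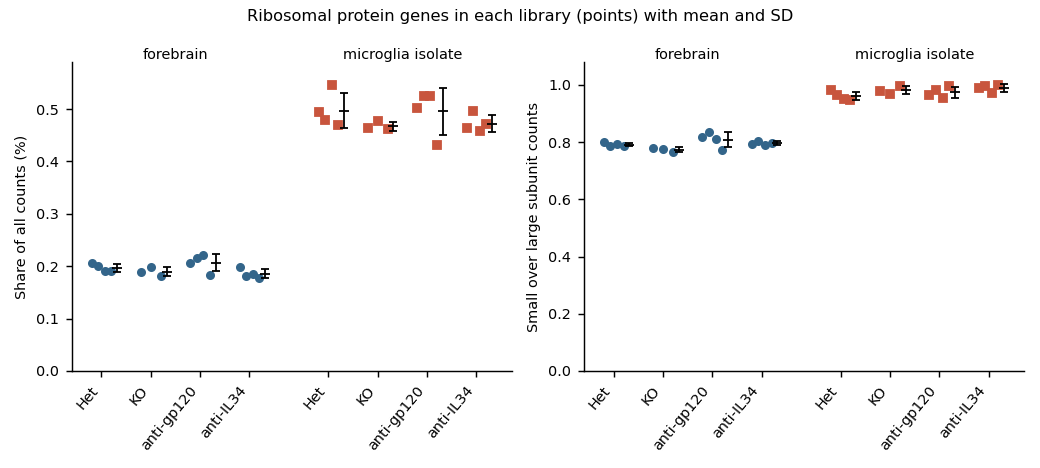
Share of all counts taken by the 94 ribosomal protein genes (left, percent) and counts of small-subunit over large-subunit genes (right, ratio) in each library, by arm and tissue, with mean and SD (n = 3 for KO, 4 for the other arms). All isolates lie above all forebrain libraries in both panels, while the arms overlap within a tissue apart from the ratio in forebrain, where the 3 KO libraries lie below the 4 Het libraries.

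Levels can be compared between genes only per length. Per kilobase of annotated exon, Rpl4, Rps15, Rps27rt and Rplp1 were the 4 highest members in forebrain, with medians of 108, 97.8, 90.5 and 77.7 CPM per kilobase. In the isolates the same 4 were among the highest in another order, with Rps27rt at 291, Rplp1 at 284, Rps15 at 263 and Rpl4 at 227 CPM per kilobase. Neighbours in this order are not separated: in forebrain Rpl4 ranged from 99.4 to 119 and Rps15 from 79.3 to 123 CPM per kilobase. The 5 lowest members with a median above 0 in forebrain were Rpl27rt, Rps10, Rps23rg1, Rpl36al and Rpl39l, at 0.0227 to 0.0444 CPM per kilobase. In the isolates the 5 lowest were Rps10, Rps23rg1, Rplp1rt, Rpl27rt and Rpl36al, at 0.00933 to 0.0843 CPM per kilobase.

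Most of the lowest members were copies, yet core members such as Rps10 and Rpl4 also sat far apart in level. Each ribosome holds nearly all core proteins in equal number. Overlap with other genes and shared sequence are given beside these levels, and their part in the levels was not tested. Rpl13, Rpl24 and Rps10, which encode core ribosomal proteins, held 0, 1 and 48 counts over all 30 libraries. In each of them 81.5% to 100% of the exon bases are also annotated to another gene on the same strand (Gm20388 for Rpl13, Gm28037 for Rpl24, RPS10-NUDT3 for Rps10). Rpl13a, a ribosomal protein also known from the GAIT complex that silences inflammatory messages, held 9759 counts. Overlap of the same kind (Gm45713 and snoRNA genes) covers 82.8% of its exon bases, and its median forebrain level was 3.12 CPM per kilobase.

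Sequence shared with other genes was measured as the share of 50-base stretches of the message that also occur in a transcript of another gene. For the 77 members that are not copies, the median forebrain level was 21.2 CPM per kilobase in the 8 members with under 25% shared, 7.38 in the 21 members and 5.09 in the 23 members of the next bins, and 3.23 in the 25 members with over 75% shared. Across these 77 genes the rank correlation was -0.34 in forebrain and -0.359 in isolates, a description over genes that share libraries. Rps3 (2.96%), Rpl8 (7.86%) and Rpl4 (16.5%) share little with other genes, whereas Rps27 shares 98.6% of its stretches with Rps27rt.

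**Figure D2:**
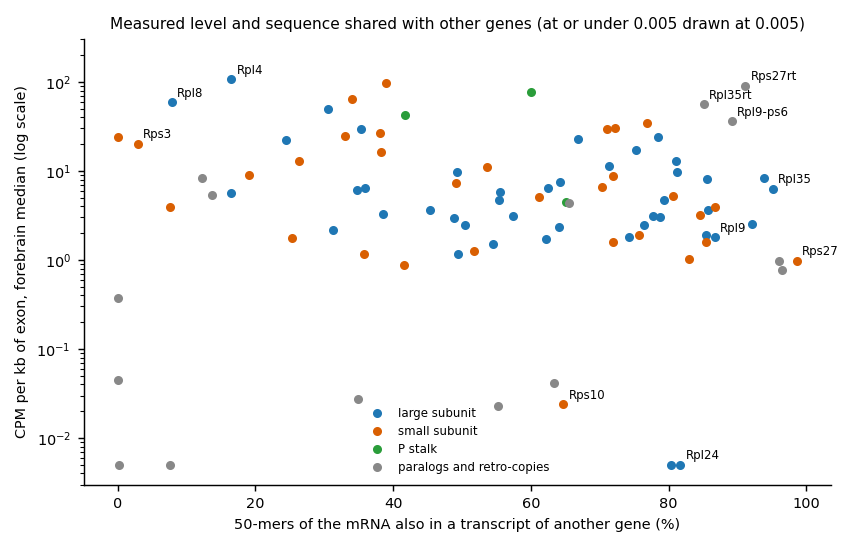
Median forebrain level of each member (CPM per kilobase of exon, log axis, points at or under 0.005 drawn at 0.005) against the percentage of its 50-base stretches found in a transcript of another gene, with subunit classes in colour. Members with little shared sequence such as Rpl4, Rps3 and Rpl8 lie high, and the retro-copies Rps27rt, Rpl35rt and Rpl9-ps6 lie far above their parents Rps27, Rpl35 and Rpl9.

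The paralogs and retro-copies differed widely in level. Some retro-copies outweighed their parents: over all libraries Rps27rt held 72600 counts and Rps27, a zinc-finger protein of the small subunit, 1810, Rpl35rt held 45662 and Rpl35 12547, and Rpl9-ps6 held 41062 and Rpl9 8580. Given the shared sequence, reads of a copy and its parent are uncertain, and the total of the pair is the safer value. Paralogs with moderate totals were Rpl7l1 (35541 counts), Rpl22l1 (10850 counts), Rps27l (8002 counts) and Rps4l (6227 counts). Rpl10-ps3, Rps18-ps6, Rpl39l and Rpl3l held 1574, 669, 586 and 545 counts. Rps4l lies within Tmtc1 and Rpl7l1 within Gm26904, both on the other strand, and Rps27rt lies within Osbpl10. Since the strand setting of the counting is not given, reads of such pairs may not be told apart. Rpl10l, Rplp2-ps1, Rplp1rt, Rps23rg1, Rpl27rt and Rpl36al had 0 to 106 counts in all.

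Several pseudogene rows also exceeded their parent. Rpl3-ps1 had a mean of 118 CPM in forebrain and 208 CPM in isolates before TMM scaling, where Rpl3, which lines the peptidyl transferase centre, had TMM-scaled values of 23.1 to 28.4 CPM and 44.1 to 81.2 CPM. The row of Rps6-ps4 had means of 57.4 and 166 CPM, against highest values of 5.77 and 11.2 CPM in any library for Rps6, the classic substrate of the S6 kinases. In all, 316 of the 317 named pseudogene rows belong to a member.

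The comparison of isolates with forebrain asked which members differ between the tissues in the 8 control animals (Het and anti-gp120). Of 85 members that passed the filter on low counts, 76 were higher and 4 lower in isolates (edgeR quasi-likelihood test, Benjamini-Hochberg adjusted p under 0.05), and the median log2 fold change was 1.27. Of all 19952 genes tested, 40.5% were called higher and 43% lower, with a median of -0.046. All 30 small-subunit members tested and all 3 stalk members were higher, with medians of 1.34 and 1.69, as were 34 of 41 large-subunit members (3 lower, median 1.21) and 9 of 11 copies (1 lower, median 1.34). These counts and medians include the copies Rpl39l, higher, and Rpl3l, lower, which passed the filter only through the tissue where they are high and are no support for a direction. Markers of several cell types moved in the same contrast. Those of microglia (7 of 7, median 5.419), border macrophages (4 of 4, 5.26), neutrophils and monocytes (4 of 4, 5.254), endothelium (4 of 4, 2.07), choroid plexus (3 of 5, 1.545) and astrocytes (3 of 5, 0.579) were higher in isolates, and all 7 of neurons were lower (-4.258). Their part in the members' values was not tested. The 9 members left untested were Rpl13, Rpl24, Rps10 and 6 copies, all with at most 15 counts in any library.

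**Figure D3:**
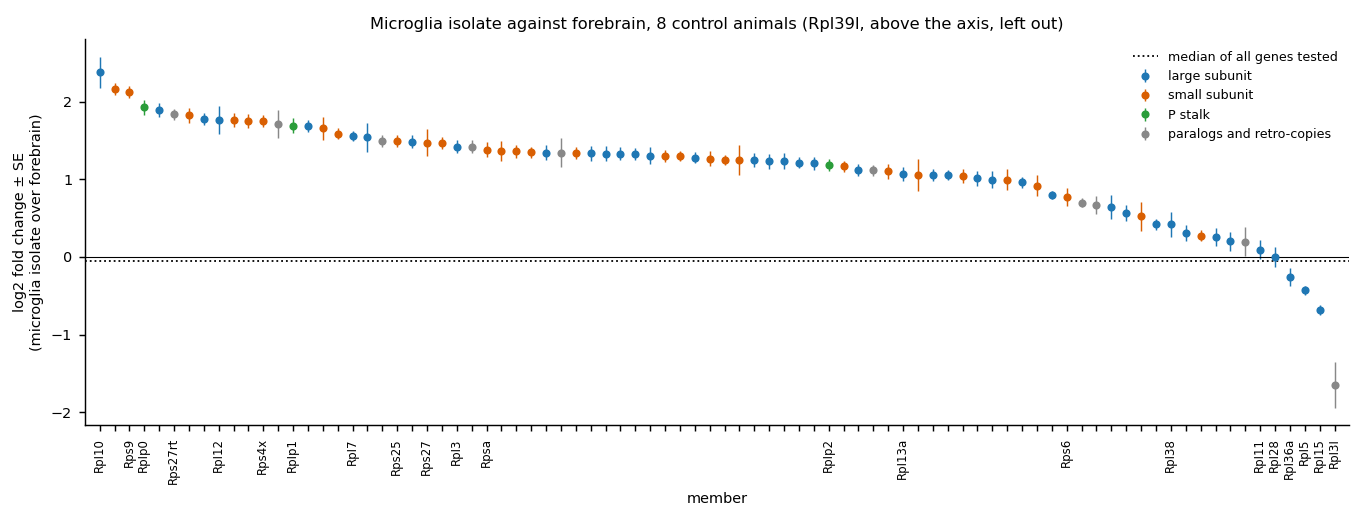
Fitted log2 fold change with SE (vertical axis) of 84 members, microglia isolates over forebrain of 8 control animals, ordered from highest to lowest and coloured by class (some names given), with the median of all genes tested as a dotted line. Most members lie between 1 and 2, and Rpl36a, Rpl5, Rpl15 and the low-count Rpl3l form the lower end (Rpl39l, near 0 in forebrain, is not drawn).

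Rps9, a small-subunit protein that binds 18S rRNA early in assembly, was among the core members with the highest fold changes. It stood at 68.6, 62.3, 63.3 and 62.7 CPM in the forebrain of Het animals 1, 20, 21 and 23 and at 68.8, 57.3, 72.7 and 67.4 CPM in that of anti-gp120 animals 1, 15, 7 and 8. In the isolates of the same animals it stood at 246, 244, 334 and 265 CPM and at 317, 257, 298 and 317 CPM. The lowest isolate was thus more than 3 times the highest forebrain library, and the log2 fold change was 2.12 ± 0.0767 (SE), with an edgeR adjusted p of 3.77e-13.

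The other members with the highest fold changes were of both subunits. Rpl10, an X-linked protein that joins the large subunit last and is needed for subunit joining, had the highest log2 fold change of a core member, 2.38 ± 0.199. It ranged from 4.15 to 6.62 CPM over the 15 forebrain libraries (median 5.22) and from 11.0 to 42.5 CPM over the 15 isolates (median 20.1), without overlap but with a wide spread in the isolates. Others among the 10 highest were Rplp0 (1.93), Rps27rt (1.84), Rps28 (1.82), Rpl18 (1.78) and Rpl12 (1.76). Rplp0 and Rpl12 form the base of the stalk that recruits the translation GTPases, and the other stalk proteins, Rplp1 and Rplp2, rose by 1.69 and 1.19.

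Among the members picked for their known roles, 14 of 16 rose, as did most members tested, where 40.5% of all genes were called higher. Rps4x, the X-linked small-subunit gene, rose by 1.75, Rps25, which many internal ribosome entry sites need, by 1.49, and Rps27 by 1.47. Rpl3 rose by 1.42, Rpsa, also known as the laminin receptor, by 1.38, and Rps19, a Diamond-Blackfan anaemia gene, by 1.299. Rps26, which sits at the mRNA exit channel, rose by 1.17, Rpl13a by 1.07, Rps6 by 0.77, and Rpl38, whose loss in mice alters skeletal patterning, by 0.42. With pseudogene rows added to their parents Rps6 stood at 1.641 and Rpl38 at 1.003.

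Members of the 5S ribonucleoprotein did not follow. Rpl5, which binds 5S rRNA with Rpl11 and through it can restrain Mdm2, stood at 34.5, 31.9, 31.0 and 31.4 CPM in Het and 32.3, 33.5, 30.9 and 31.1 CPM in anti-gp120 forebrain. Its isolates held 21.7, 22.5, 28.1 and 25.4 CPM and 22.3, 24.2, 24.5 and 21.1 CPM. No isolate of a control animal reached the lowest control forebrain, and the log2 fold change was -0.43 ± 0.0631 (edgeR adjusted p = 8.62e-06). Rpl11 had a log2 fold change of 0.093 ± 0.121 and did not pass the test.

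Rpl15, a protein of the large subunit, was the 1 member of 85 whose 15 isolates all lay below all 15 forebrain libraries, while 63 members had all isolates above. Of all genes tested 25.2% had all isolates below and 22.6% all above. Its forebrain values ranged from 36.9 to 46.7 CPM (median 41.4) and its isolate values from 23.4 to 32.9 CPM (median 26.4). The log2 fold change in control animals was -0.68 ± 0.0629 (edgeR adjusted p = 3.65e-08). Rpl3l, the striated-muscle paralog of Rpl3, held 0.188 to 1.15 CPM in control forebrain and 0.106 to 0.590 CPM in control isolates, which overlap. It passed the filter through forebrain, so its call and fold are not given as a result.

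Rpl36a was called lower at -0.26 (edgeR adjusted p = 0.0496), but it did not hold: with its pseudogene rows added it was called higher at 0.563, and the animal block gave an adjusted p of 0.0695. Rpl28 behaved alike without a call, at -0.001 alone and 1.38 with pseudogene rows added. The remaining members among the 10 lowest were Rps4l (0.20), Rpl27 (0.20) and Rpl23a (0.26), which did not pass, and Rps15a (0.27), which rose. With pseudogene rows added Rpl27 (0.4) and Rpl23a (1.36) were called higher, Rps15a stood at 0.629, and Rps4l at 0.201 still did not pass. In that setting Rpl15 and Rpl5 stayed lower, at -0.614 and -0.416.

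Rpl39l, the paralog of Rpl39 that is best known from testis, was at or near 0 in forebrain and passed the filter in control animals through the isolates, so its call and fold are not given as a result. Its isolates held 0.538, 2.01, 1.51 and 0.101 CPM in Het and 7.29, 0.543, 0.688 and 2.93 CPM in anti-gp120 animals, and no forebrain library exceeded 0.0757 CPM. The isolates of anti-IL34 animals held 0.456, 0.490, 0.0544 and 0 CPM and those of KO animals 0.231, 0.199 and 0 CPM. The values differ widely between replicates of 1 arm.

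The copies with enough counts could be set beside their parents in the same contrast. Both members rose in the pairs Rpl35rt (1.49) and Rpl35 (1.34), Rpl9-ps6 (1.11) and Rpl9 (1.23), Rpl10-ps3 (1.71) and Rpl10 (2.38), and Rps18-ps6 (1.34) and Rps18 (1.10), which can share reads. Rps27l, a p53 target, rose by 1.42. Rpl22l1 rose by 0.67 and its parent Rpl22 by 0.80, and Rpl7l1 by 0.70 and Rpl7 by 1.56.

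The same comparison in the 7 animals with IL-34 loss used other libraries. There 75 of 84 members tested were higher and 3 lower (Rpl15, Rpl5 and the low-count Rpl3l, whose call is again no result), with a median of 1.21, where 43% of all 19259 genes were called higher and 40.3% lower. Rps21 (2.19) and Rplp1 (2.15) had the highest values, and Rps2 (2.06), Rplp0 (2.05), Rps9 (1.94), Rpsa (1.90) and Rps27rt (1.83) were also among the 10 highest. Rpl32 (1.80) and Rps4x (1.58) were among the 5 with the smallest p. At the lower end Rpl15 stood at -0.51 and Rpl5 at -0.45. Rpl11 (-0.10), Rpl27 (0.20), Rpl36a (0.20), Rps4l (0.26) and Rpl17 (0.28) did not pass, while Rps15a (0.25) and Rpl28 (0.33) rose. Markers of astrocytes (5 of 5, median 1.464), oligodendrocytes (5 of 6, 1.033) and choroid plexus (5 of 5, 3.037) were higher in these isolates. In control animals 3 of 5, 1 of 6 and 3 of 5 were higher, in that order. Of 7 neuron markers 6 were lower and 1 higher (median -3.271). The part of these markers in the members' values was not tested.

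Related gene groups, taken from lists chosen with earlier results of these data known, differed between the tissues in the control animals as follows, where 40.5% of all genes were higher and 43% lower. Fau and Rack1, ribosomal proteins whose names fall outside the rule, were higher by 1.64 and 1.79. Of 19 other TOP messages tested, a list that includes both, 17 were higher and 1 lower (median 1.02), among them Tpt1 (2.16), Pabpc1 (1.71) and the elongation factors Eef1a1 (1.42) and Eef2 (1.082). Of 36 initiation and elongation factors 26 were higher and 5 lower (median 0.351), and of 30 ribosome assembly factors 16 were higher and 11 lower (median 0.376), Npm1 at 1.03 among the higher. Genes of RNA polymerase I transcription, 5 subunits and 6 initiation factors, had 4 higher and 5 lower of 11 (median -0.103), and genes of mTORC1 and TOP control had 7 higher and 7 lower of 15 (median 0.132), Larp1 at 0.45 and Mtor at -0.61. The counts of the assembly, RNA polymerase I and mTORC1 lists lie near the shares of all genes. The mitochondrial ribosomal proteins, which serve the separate ribosome of that organelle, went the other way: 5 were higher and 55 lower of 75 (median -0.472).

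The deletion was examined by comparing KO with Het animals. In forebrain none of 84 members passed the edgeR test, with 5 at an unadjusted p under 0.05 (7.45% of all genes were) and none by DESeq2. The median log2 fold change was -0.035, against 0 over all genes, and 0.62% of all genes were called. All KO libraries lay below all Het libraries for 5 of 84 members and above for none, against 6.22% and 2.07% of all genes tested, so the count below is near the background. Rps4l, the copy of Rps4x on an autosome, had the smallest p among the lower members, at 4.83, 8.04, 6.11 and 5.68 CPM in Het and 4.31, 3.97 and 5.07 CPM in KO. Its range in KO overlaps that in Het by 1 library, and its log2 fold change of -0.49 ± 0.146 had an edgeR adjusted p of 0.333. The 2 higher members with the smallest p were Rps12 at 0.25 ± 0.148 and Rps15a at 0.085 ± 0.0518. The ratio of small-subunit to large-subunit counts was 0.774 ± 0.00794 (SD, n = 3) in KO and 0.791 ± 0.00602 (SD, n = 4) in Het forebrain, with no overlap. An exact two-sided permutation test gave p = 0.0571, the smallest that 3 against 4 allows, and 0.342 after adjustment over 12 such tests. In the same libraries 6 of 7 microglia markers fell (median -1.422), with sums of 91.9 to 112 CPM in KO and 212 to 244 CPM in Het. Of 6 oligodendrocyte markers 4 fell (median -0.335), with sums of 4030 to 4400 CPM in KO and 5050 to 5900 CPM in Het. Their part in the members' values was not tested.

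In the isolates of the genotype experiment none of 85 members passed the edgeR test, although 5.37% of all genes were called there. The median was -0.138, with 11 members at an unadjusted p under 0.05, where 32.6% of all genes were, 24 above 0, and 3 called by DESeq2 (Rps2 and Rpl41 higher, Rpl12 lower), which called 20.6% of all genes. All KO isolates lay below all Het isolates for 18 of 85 members, near the 20% of all genes tested that did so, and above for 3, where 17.7% of all genes did so. Rpl3 held 57.5, 57.9, 81.2 and 72.2 CPM in Het and 49.4, 45.1 and 44.1 CPM in KO isolates (log2 fold change -0.53 ± 0.162, edgeR adjusted p = 0.103). Rpl19, also of the large subunit, followed at -0.55 ± 0.177. With pseudogene rows added these log2 fold changes were -0.2 and -0.1.

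Rps2, a small-subunit protein at the mRNA entry channel, leaned the other way. It stood at 191, 142, 134 and 152 CPM in Het and at 249, 218 and 191 CPM in KO isolates, where the lowest KO value and the highest Het value are almost equal. Its log2 fold change was 0.52 ± 0.179 (edgeR adjusted p = 0.119). Rpl41, among the shortest proteins known, held 93.0, 79.1, 74.6 and 74.8 CPM in Het and 104, 104 and 95.3 CPM in KO isolates (0.35 ± 0.123). Rpl12 held 6.88, 12.1, 18 and 14.4 CPM in Het and 8.26, 4.98 and 7.05 CPM in KO isolates. The Het value of animal 1 lies among the KO values, and the log2 fold change was -0.99 ± 0.342. Rpl10a, a large-subunit protein of the L1 stalk, held 9.93 CPM in Het animal 1 against 17.3 to 30.8 CPM in the other 3 and 7.83 to 13.3 CPM in KO (-1.10 ± 0.414).

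The number of members that passed changed with the control libraries. The isolate of Het animal 1 had 15.8 M counts, near the 15.9 M of Het animal 20. It had the highest neuron marker sum of the Het isolates (2390 against 611 to 1520 CPM) and the lowest microglia marker sum (10000 against 11500 to 17200 CPM). Without Het animal 1, 12 of 84 members were called: Rps2, Rpl41 and Rpsa higher, and Rpl23, Rpl12, Rpl10a, Rpl3, Rps29, Rpl19, Rpl9, Rps25 and Rps9 lower. That fit called 15.7% of all genes higher and 15.7% lower, 31.5% in all against 14.3% of members, so the calls are not a result about these genes. The values then ran from -1.26 for Rpl10a and -1.12 for Rpl12 to 0.641 for Rps2. Without Het animal 21 the calls were Rpl12 (-0.689) and Rps9 (-0.39), both lower, in a fit that called 6.85% of all genes higher and 10.4% lower. Leaving out any other animal gave none.

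Cell-type markers moved in the same isolates. All 7 microglia markers tested fell in KO isolates (median -1.60), and their sum was 3860 to 4180 CPM in KO and 10000 to 17200 CPM in Het isolates. The 7 neuron markers had a median of 0.929 with none called, and summed to 2050 to 3570 CPM in KO and 611 to 2390 CPM in Het isolates. Astrocyte markers summed to 3220 to 3450 CPM in KO and 941 to 2690 CPM in Het isolates (median 0.943, none of 5 called), without overlap, and 6 oligodendrocyte markers had a median of 0.83 with none called. None of these marker sums was at 0, and their part in the members' values was not tested. Over the 15 isolates of all arms, the members' share of counts had a rank correlation of 0.563 with the microglia marker sum and -0.533 with the neuron marker sum, libraries of 4 arms that share these differences.

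The antibody against IL-34 was compared with the control antibody in the same way. In forebrain none of 84 members passed the edgeR test or DESeq2, while 0.717% of all genes were called. At an unadjusted p under 0.05 there were 16 members and 4.86% of all genes. The values leaned lower: 10 of 84 were above 0 and the median was -0.135, against 0.001 over all genes. All anti-IL34 libraries lay below all control libraries for 14 of 84 members and above for none, against 2.65% and 0.776% of all genes tested. Rpl35rt held 25.6, 23.0, 25.9 and 25.1 CPM in anti-gp120 animals 1, 15, 7 and 8 and 22.0, 20.4, 19.9 and 21.3 CPM in anti-IL34 animals 10, 11, 2 and 24. These do not overlap, and the log2 fold change of -0.24 ± 0.0705 had an edgeR adjusted p of 0.33. The higher members with the smallest p, Rps4l (0.13 ± 0.23) and Rps16 (0.088 ± 0.207), were within their error, and their direction turned: Rps16 stood at -0.141 with pseudogene rows added, and Rps4l at -0.101 when animal 11 of the anti-IL34 arm was left out and at -0.035 when control animal 15 was. Of 7 microglia markers 6 fell in these libraries (median -1.41), and the neuron markers had a median of 0.01. Border macrophage markers summed to 5.35 to 11.5 CPM in anti-IL34 and 12.8 to 18.8 CPM in control forebrain (median -0.811, none of 3 tested called). The members' share of counts was 0.184% in control animal 15, against 0.206% to 0.222% in the other controls. The part of these differences in the members' values was not tested.

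In isolates of the antibody experiment none of 84 members passed the edgeR test, 19 had an unadjusted p under 0.05, near the 25.9% of all genes that did, and DESeq2 called 5, all lower, where it called 12% of all genes. These were Rps4x, Rpl23, Rpl7l1 and Rps9, and Rpl39l, which passed the filter through the control isolates and whose call is therefore no result. Of all genes 0.626% were called, the median was -0.106 for members and 26 were above 0. All anti-IL34 isolates lay below all control isolates for 15 of 84 members and above for none, against 10.8% and 4.74% of all genes tested, a count that includes Rpl39l. Rpl23, which lies at the face between the subunits, held 32.3, 27.1, 27.1 and 29.6 CPM in control and 20.2, 23.8, 20.9 and 21.4 CPM in anti-IL34 isolates. These do not overlap. Rps4x held 179, 157, 181 and 180 CPM in control and 142, 138, 135 and 139 CPM in anti-IL34 isolates, also without overlap. The log2 fold change of Rpl23 was -0.42 ± 0.108 (edgeR adjusted p = 0.0944), and that of Rps4x was -0.34 ± 0.0962 (adjusted p = 0.108 by the same edgeR test). Rps21 and Rpl41 were the higher members with the smallest p, at 0.28 ± 0.122 and 0.33 ± 0.144.

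Here the count changed with 1 control animal. Without anti-gp120 animal 15, the member share of whose isolate was 0.431% against 0.502% to 0.525% in the other 3, edgeR called 20 of 84 members, 19 lower and only Rps2 higher (0.475). The same fit called 19.5% of all genes lower and 20.9% higher, so the count of lower members, Rpl39l among them, is near the background. The lower calls included Rpl12 (-0.829), Rpl10a (-0.887), Rpl23 (-0.482), Rps9 (-0.428) and Rps4x (-0.403). The neuron markers in the isolate of animal 15 summed to 3880 CPM, against 1110 to 2430 CPM in the other 3, and their part was not tested. Over both arms 4 of 7 microglia markers fell in anti-IL34 isolates (median -1.16), the neuron markers had a median of 0.953 and choroid plexus markers a median of 2.94, with none of the latter lists called. Border macrophage markers summed to 270 to 380 CPM in anti-IL34 and 403 to 725 CPM in control isolates (median -0.635, none of 4 called). Medians were 0.741 for neutrophil and monocyte, 0.664 for astrocyte and 0.622 for oligodendrocyte markers, with none called. The part of these markers in the members' values was not tested.

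**Figure D4:**
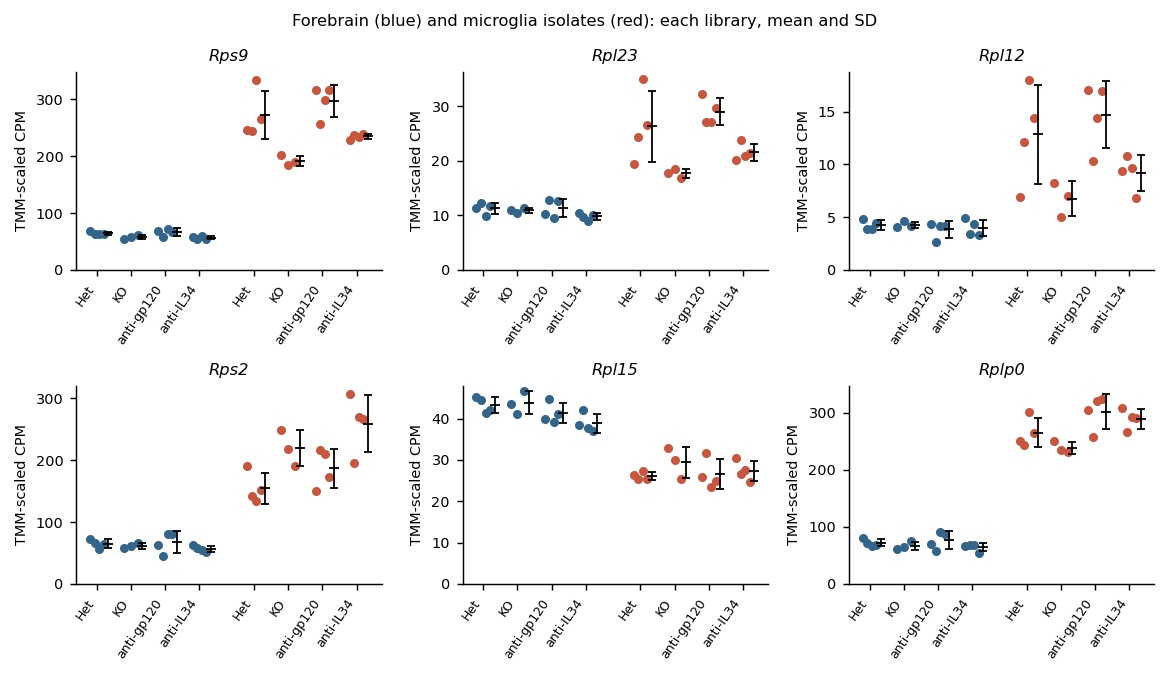
TMM-scaled CPM (linear axes from 0) of 6 members in each library by arm, forebrain in blue and microglia isolates in red, with mean and SD (n = 3 for KO, 4 for the other arms). Rps9, Rpl23 and Rpl12 sit lower and Rps2 higher in isolates with IL-34 loss than in most controls, Rpl15 is lower in every isolate than in forebrain, and Rplp0 is higher in every isolate.

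Rps9, singled out after its values were seen, was the 1 member of 83 tested throughout with an unadjusted p under 0.05 in all 4 arm comparisons. Of all 16043 genes tested in the 4, 1.42% were the same, so this is not a result about the member. In forebrain KO animals 24, 3 and 6 held 54.5, 58.5 and 61.5 CPM, all below the Het values given above, and anti-IL34 animals 10, 11, 2 and 24 held 58.5, 53.9, 59.7 and 54.3 CPM, which overlap the control range through animal 15 alone. In isolates the KO animals held 202, 185 and 189 CPM and the anti-IL34 animals 229, 237, 234 and 239 CPM, in both cases below every control of the same experiment. The log2 fold changes were -0.11 ± 0.047 and -0.48 ± 0.162 for the deletion in forebrain and isolates and -0.24 ± 0.07 and -0.35 ± 0.112 for the antibody. The edgeR adjusted p values were 0.632, 0.117, 0.335 and 0.135, so none passed over all genes.

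**Figure D5:**
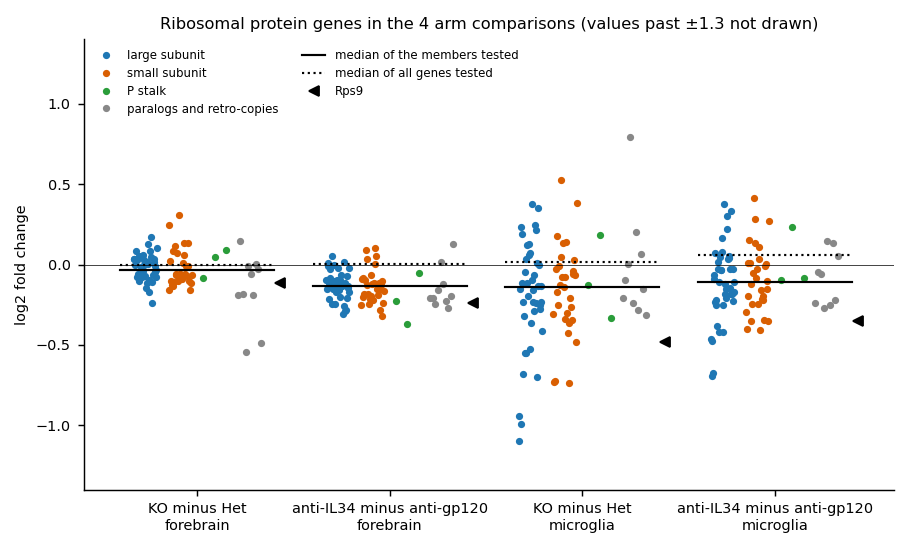
Fitted log2 fold changes of the members tested (points, by class) in the 4 comparisons of IL-34 loss with its control, with the median of the members (solid) and of all genes (dotted); 1 value in each isolate comparison, Rpl39l, lies below the axis. Points spread more widely in isolates than in forebrain, the member median lies below the dotted line in all 4, and the triangle marks Rps9.

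The error of these values sets what could be seen. The median SE of a member's log2 fold change was 0.0862 in KO forebrain, 0.121 in anti-IL34 forebrain, 0.158 in KO isolates and 0.124 in anti-IL34 isolates. A log2 change under 0.25 was fitted for 81, 75, 51 and 60 members in that order. No difference in the members' share of counts between an arm and its control passed (exact permutation tests, two-sided, raw p from 0.0857 to 0.371, adjusted from 0.342 to 0.495). The smallest p that 3 against 4 libraries allows in this test is 0.0571, so neither test of the deletion could pass. For 4 against 4 that floor is 0.0286 before adjustment over 12 tests. These tests therefore cannot show that the share stayed the same. The pathway lists gave few calls: in KO isolates 1 of 11 genes of RNA polymerase I transcription and 2 of 15 mTORC1 and TOP control genes fell, where 5.37% of all genes were called, too few to be a result about these lists. None of 75 mitochondrial ribosomal genes, 30 assembly factors or 36 translation factors was called in any of the 4 comparisons.

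Whether IL-34 loss acted differently in isolates and forebrain was tested directly. For the deletion none of 85 members passed the edgeR test (12 at an unadjusted p under 0.05, against 31% of all genes), where 2.98% of all genes were called, and DESeq2 called 5 members and 20.2% of all genes. Rps2 had the largest support in the higher direction, at 0.62 ± 0.189 (edgeR adjusted p = 0.0822), followed by Rpsa at 0.48 ± 0.156. Rpl19 at -0.57 ± 0.201 and Rpl3 at -0.51 ± 0.186 had the smallest p among the lower members, but with pseudogene rows added they stood at 0.011 and -0.142. For the antibody none of 84 members passed (8 unadjusted, against 21.1% of all genes), and 0.0924% of all genes were called, while DESeq2 called 1 member and 8.35% of all genes. Rpl41 (0.61 ± 0.2) and Rplp1 (0.59 ± 0.215) led the higher direction, and Rpl7l1 (-0.30 ± 0.0972) and Rpl12 (-0.69 ± 0.3) the lower one.

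The deletion and the antibody were also set against each other within a tissue. In forebrain none of 84 members differed (3 at an unadjusted p under 0.05, against 3.07% of all genes, and none by DESeq2), with 0.0101% of all genes called, and the median difference was 0.096. Rpl26 (0.30 ± 0.111) and Rpl36a (0.38 ± 0.169) were the higher members with the smallest p, and Rps4l (-0.60 ± 0.308) and Rpl30 the lower ones. In isolates none of 85 members differed and none had an unadjusted p under 0.05, where 3.95% of all genes did, with 0% of all genes called and none of the members by DESeq2. The values there were 0.36 ± 0.175 for Rpl13a and 0.34 ± 0.266 for Rpl11, and -0.73 ± 0.386 for Rpl38 and -0.20 ± 0.14 for Rps20. With pseudogene rows added Rpl38 stood at -0.12 and Rpl13a at 0.223, and in forebrain Rpl36a at 0.093. A missed threshold does not show that the deletion and the antibody act alike on these genes.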

How the data were processed

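Per the submitters' processing notes, reads were aligned with STAR 2.7.5c to GRCm38 and counted with featureCounts 1.6.3, with R 4.4.0 named as well; strand setting and multi-mapping rule are not given in the sources used here. The deposited counts are whole reads per gene for 51752 rows. The deposited TPM, given by the authors for 21061 genes, equal count over the deposited Length, which is the gene span for 51183 of 51498 rows matched to the annotation; levels per exon kilobase were therefore computed from the counts and GENCODE M21, and TPM served for the order of levels under the deposited Length. Of the count columns 6, and of the TPM columns 6, matched no labelled sample and were not used.

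Members and gene lists were chosen with earlier results of these data known. The fits used edgeR 4.0.16 (TMM, filterByExpr, sex as covariate, quasi-likelihood test, Benjamini-Hochberg over all genes tested, call at adjusted p under 0.05) and DESeq2 1.42.0 as an alternative. The edgeR fit was tested on simulated data for some of the comparisons, and the DESeq2 fit was not. Shares were tested in SciPy 1.17.1. Shared sequence was read from GENCODE M21 transcripts, with 1 message per member and stretches of 50 bases. Named genes were 16 members with known roles, all copies, the 5 (or, with no call, 2) members per direction with the smallest p, the 10 highest and lowest in the contrast of tissues, and the 5 highest and lowest by level. Forebrain and isolate come from the same animal. Over all genes their deviations from group means had a median correlation of 0.109 across the 15 animals (0.0394 to 0.172). Over 85 members the median was 0.0116, with a wider range between animals (-0.402 to 0.455). Alternatives were DESeq2, other scalings, no filter, no sex term, pseudogene rows added, pooled libraries, the animal block and each animal left out. Labels do not say that animals were processed separately, so p-values measure the spread between these samples. Some genes that this rule names are not reported here.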

Additional observations from a re-analysis of the deposited data

Results flagged for a closer look

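Among groups of 4 libraries, 132 sets of values named in the report were examined for a library far from the other 3, and 13 stood apart; chance alone gives about 1 in 20. The isolate of Het animal 21 was highest for Rpl4 (566 CPM) and Rps27rt (140 CPM), and that of Het animal 1 for Rpl36a (3.17 CPM). The forebrain of Het animal 1 was highest for Rps9 (68.6 CPM) and Rpl35 (8.41 CPM). The forebrain of anti-gp120 animal 15 was lowest for Rpl4 (191 CPM), Rps4x (45.7 CPM) and Rpl12 (2.65 CPM), and its isolate was lowest for Rps4x (157 CPM) and highest for Rpl35rt (82.9 CPM). In anti-gp120 forebrain Rpl39l had counts in animal 7 alone (0.0366 CPM). In anti-IL34 forebrain animal 24 was lowest for Rplp0 (54.8 CPM) and highest for Rpl3 (25.3 CPM).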

How the results depend on the processing

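Calls were stable between the tissues, and the arm comparisons in forebrain gave 0 or 1 call under every setting. The arm comparisons in isolates, and those of effects between tissues, changed with the setting. In control animals the number of members called was 79 to 84 under 7 other settings and 77 to 81 with 1 animal left out, and in animals with IL-34 loss 77 to 83 and 75 to 79. The animal number as a replicate block gave 79 and 78 calls there, and 0 in both comparisons of effects between tissues; it ended no call but that of Rpl36a. With 1 animal left out the calls ranged from 0 to 12 (KO isolates), 0 to 20 (anti-IL34 isolates), 0 to 13 (deletion, isolates against forebrain) and 0 to 11 (the antibody likewise), the highest without Het animal 1 or anti-gp120 animal 15, and the other 4 comparisons stayed at 0. DESeq2 called 3 members in KO isolates, 5 in anti-IL34 isolates, 5 for the deletion between tissues and 1 for the antibody between tissues. Without the filter 1 member was called in each of KO forebrain (Rps4l), anti-IL34 forebrain (Rplp1), anti-IL34 isolates (Rpl39l) and the deletion against the antibody in forebrain (Rplp1), where 1.24%, 1.15%, 2.75% and 0.352% of all genes were called. Pooling all 15 libraries of a tissue gave 4 calls in KO isolates (Rpl3, Rpl19, Rps9, Rpl23; 14.6% of all genes), and dropping sex gave 1 in anti-IL34 isolates (Rpl23; 5.59% of all genes) and 2 for the deletion between tissues (11.9% of all genes), shares above those of the members. The share of counts was 0.178% (forebrain) and 0.445% (isolates) without copies, and 0.273% and 0.696% with pseudogene rows. Directions turned for Rpl28 between the tissues (0.024 by DESeq2, 0.03 with RLE scaling, 0.005 with TMM without members, 0.052 unfiltered, 1.38 with pseudogene rows, 0.018 to 0.077 without Het 21, Het 23 (0.06) or anti-gp120 8), Rpl36a (0.563 with pseudogene rows), Rpl11 (-0.001 without anti-gp120 7), Rpl19 (deletion between tissues, 0.011 with pseudogene rows), Rps16 (-0.141 with pseudogene rows) and Rps4l (-0.101 without anti-IL34 11, -0.035 without anti-gp120 15) in anti-IL34 forebrain. At the other end of the same leave-one-out ranges the direction was kept: -0.059 for Rpl28 and 0.306 for Rps4l without anti-gp120 7, and 0.17 for Rpl11 without anti-gp120 15. Beyond what each setting leaves out, the cause was not tested. Without Het animal 1 28.5%, and without anti-gp120 animal 15 29.9%, of all genes were called in the comparisons between tissues, more than among members (15.5% and 12.9%). Low totals limit Rpl39l and Rpl3l.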
